A study of Homo sapiens with 9 samples.

Results

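Transcripts of 10 enzymes of serine synthesis, folate-bound one-carbon transfer and proline synthesis were followed in HEK293T cells, a long-established line from human embryonic kidney. The genes were taken by symbol: PHGDH, PSAT1, PSPH, SHMT1, SHMT2, MTHFD1, MTHFD2, MTHFD1L, ALDH1L2 and PYCR1. All 10 were found among the 60683 gene entries of the files, and all 10 had counts in every library and passed the filter on low counts in every comparison. The 9 libraries of total RNA, depleted of ribosomal RNA, formed 3 groups of 3 replicates. Parental cells are the line from which both clones were made. Clone 15 and clone 37 each descend from a sorted single cell in which the piggyBac transposon had integrated a pair of reporters, ATG-(CAG)60-Myc-NLuc with 60 CAG units and ATG-(CAG)0-Myc-FLuc with 0. Clone 15 is labelled as expressing both integrands at a low level and clone 37 at a high level. Each level is represented by 1 clone, so the level of the integrands and other differences between the clones cannot be told apart. No label gives the age of the cultures, and none says that replicates were separate cultures, so p-values measure only the spread between these libraries, which may be technical.

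Serine is made from a glycolytic intermediate by PHGDH, PSAT1 and PSPH in turn. Serine hydroxymethyltransferases then split serine into glycine and a carbon unit that is carried on tetrahydrofolate. A mitochondrial set of enzymes (SHMT2, MTHFD2, MTHFD1L, ALDH1L2) oxidises that unit to formate or carbon dioxide, and a cytosolic set (SHMT1, MTHFD1) uses it for purine, thymidylate and methionine synthesis. PYCR1 catalyses the last step of proline synthesis in mitochondria. Several of these genes are known targets of ATF4, the transcription factor whose translation rises in the integrated stress response.

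Gene counts, taken from the strand of the transcripts, summed to 10334090 to 38093340 per library. Each clone 15 library was deeper than all parental and clone 37 libraries and was read at 100 bp rather than 75 bp, so read length, depth and clone 15 cannot be told apart. Read pairs mapped to several places were 4.59% to 5.98% in clone 15 and 10.4% to 14.0% in the other libraries. Pairs that met no gene were 33.7% to 34.6% in clone 15 and 19.2% to 29.9% in the others. These shares and clone 15 cannot be told apart either. Parental replicate 2 stood apart from its group: the chi-square per degree of freedom of gene counts was 11.5 and 11.6 against the other parental libraries, which differed from each other by 1.99. Parental replicate 2 also had the lowest share of pairs that met no gene (19.2%) and the highest share assigned to genes (59.7%) of all libraries. In clone 15, replicate 2 was the farthest from its group (9.97 and 8.19, against 4.53 between the others). Without parental replicate 2 the enzymes called numbered 9 in clone 37, where 59.4% of all tested genes were called, and 7 in clone 15, where 48.0% were. Without clone 15 replicate 2 they numbered 7 in clone 15 (47.6% of all tested genes) and 7 between the clones (60.2%). Of 10 kidney development and HEK293 markers all 10 exceeded a mean of 1 CPM (a count per 1000000 gene counts of its library). Their summed level was 1481 to 1770 CPM in parental, 4234 to 4380 in clone 15 and 939 to 1017 in clone 37, with NEFM and NEFL, neurofilament genes, contributing most of the difference. Summed fibroblast markers were 34.7 to 37.8 CPM in parental, 54.45 to 168 in clone 15 and 18.9 to 20.9 in clone 37. Epithelial markers summed to 62.3 to 73.0 CPM in parental cells, 84.1 to 98.3 in clone 15 and 62.1 to 64.1 in clone 37. The members went different ways: CDH1 was at 12.5 to 14.2 CPM in parental cells and 3.29 to 4.39 in the clones, and KRT18 at 35.4 to 42.1 in parental cells, 62.0 to 74.3 in clone 15 and 46.7 to 47.2 in clone 37. Leukocyte, hepatocyte and erythroid markers summed to at most 2.65 CPM in any library, with CD3E and HBB at 0 in all 9. The part of these markers in the results was not tested. In bulk RNA, fewer cells of a kind and less RNA per cell cannot be told apart.

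Promoter sequence is shown for enzymes whose transcripts differed unlike each other between the groups, to set the letters beside the values. RefSeq windows on GRCh38.p14, from 250 bases before to 50 after a start, were held for 6 of the 10 genes (PHGDH, PSAT1, SHMT1, MTHFD1, MTHFD2, MTHFD1L). They were searched on both strands for TGATGNAA, the core of the C/EBP-ATF response element, and for the E-box CACGTG. Of 35116 windows of 300 bases, 3.62% held TGATGNAA and 7.26% held CACGTG. PHGDH, PSAT1, MTHFD2 and SHMT1 held neither. MTHFD1 held an E-box 15 bases before its RefSeq start, which lies downstream of the gene start given below, so all 250 upstream bases of its window are in annotated exons. MTHFD1L, with 4 windows, held both motifs in 3 of them. These 3 windows overlap and share 1 site of each motif, so they are not repeated occurrences. In 1 of the 3 the TGATGNAA match lies after the RefSeq start. The printed MTHFD1L match also lies in an annotated exon. The RefSeq starts of PHGDH, MTHFD2, MTHFD1L and SHMT1 likewise lie inside the gene spans given below. For SHMT1, 13 of the upstream bases are in annotated exons. The PSAT1 and SHMT1 stretches below are the upstream bases outside annotated exons, the other stretches are 30 bases around a match, and capitals mark the matched motif.
PSAT1, chr9:78296875-78297124, plus strand: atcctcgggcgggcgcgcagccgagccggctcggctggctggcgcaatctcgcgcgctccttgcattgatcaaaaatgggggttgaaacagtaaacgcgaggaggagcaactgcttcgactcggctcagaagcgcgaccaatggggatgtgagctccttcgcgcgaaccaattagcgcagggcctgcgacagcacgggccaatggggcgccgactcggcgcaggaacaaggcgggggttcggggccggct
SHMT1, chr17:18363564-18363800, minus strand: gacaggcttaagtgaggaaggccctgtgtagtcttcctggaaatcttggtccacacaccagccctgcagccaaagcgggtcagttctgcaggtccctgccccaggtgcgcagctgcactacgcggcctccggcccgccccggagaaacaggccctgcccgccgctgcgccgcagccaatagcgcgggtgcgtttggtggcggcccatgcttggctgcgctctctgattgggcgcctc
MTHFD1, chr14:64388323-64388352, plus strand: tggccagtccctaagCACGTGggttgggtt
MTHFD1L, chr6:150866346-150866375, plus strand: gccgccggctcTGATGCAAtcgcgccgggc
A match is a run of letters and no match says only that the letters are not in these windows.

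The 10 enzymes stood at unlike levels in parental cells. Levels between genes are compared here as CPM per kilobase of merged exons, and the order depends on that length. For PHGDH the merged exons hold 9217 bases and the longest annotated transcript 3180, while for PSAT1 both are 2188. An order by transcript length was not made. PSAT1 was highest at 223 ± 19.75 (SD, n = 3), followed by MTHFD2 at 80.8 ± 7.51 and PHGDH at 78.5 ± 2.69. The ranges of MTHFD2 and PHGDH overlapped. SHMT2 (63.45 ± 4.32), PYCR1 (50.6 ± 2.47) and MTHFD1 (37.8 ± 1.09) came next without overlap. ALDH1L2 (30.5 ± 1.57) and MTHFD1L (28.4 ± 1.01) overlapped, while PSPH (16.9 ± 0.890) and SHMT1 (6.67 ± 0.628) were the lowest. The transcript of mitochondrial SHMT2 thus stood above that of cytosolic SHMT1, in each of the 3 parental libraries. Summed over all 10 genes, parental cells had 2911 ± 137 CPM (SD, n = 3), clone 15 had 2172 ± 36.5 and clone 37 had 1616 ± 17.3.

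**Figure D1:**
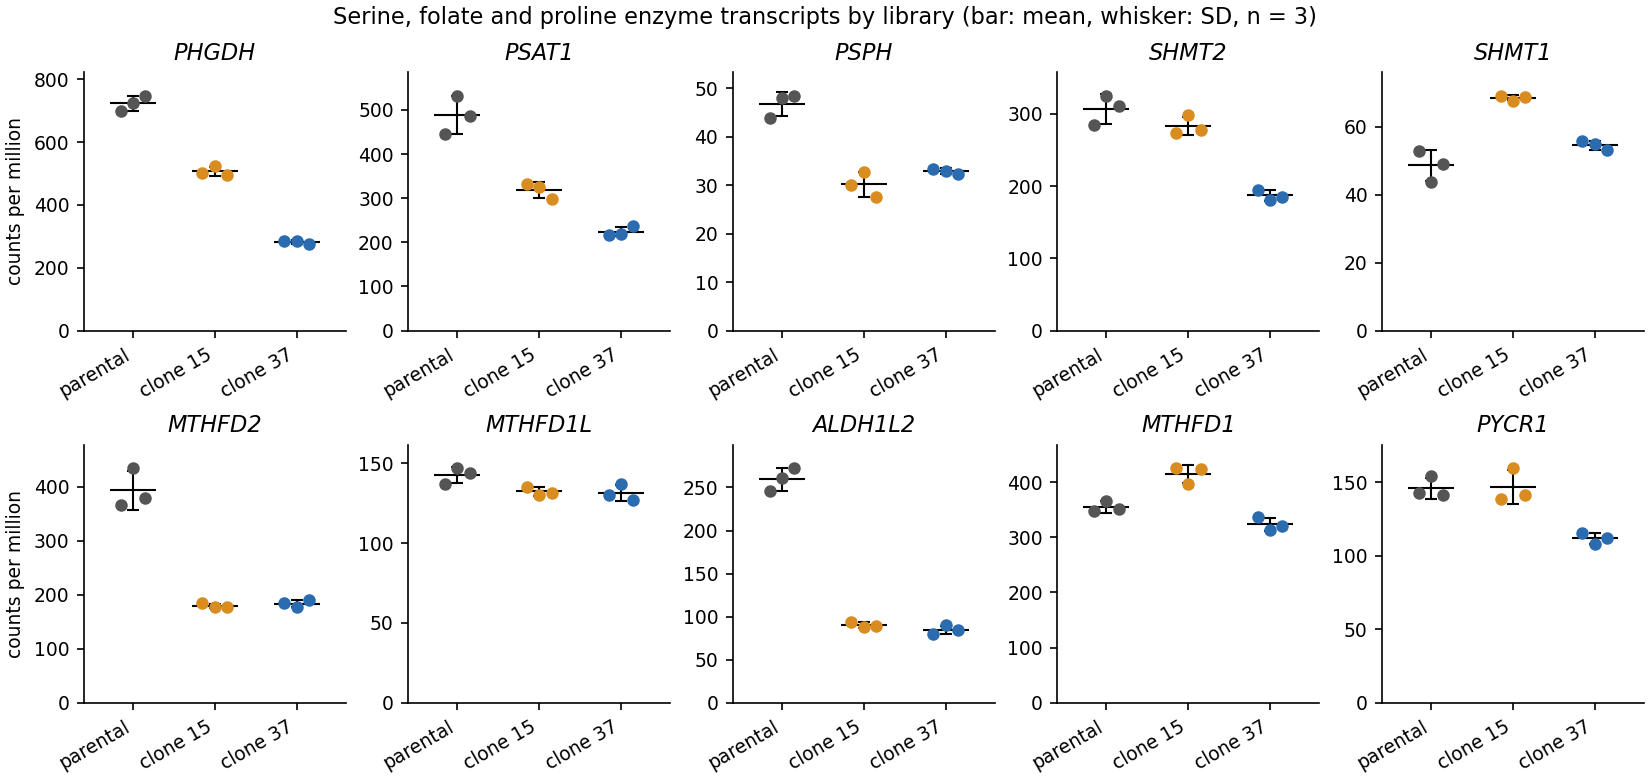
CPM of each enzyme transcript in the 9 libraries, 3 per group, with the group mean (bar) and SD (whisker); every axis starts at 0. PHGDH and PSAT1 step down from parental through clone 15 to clone 37, whereas MTHFD2 and ALDH1L2 sit at about the same lower level in both clones.

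Clone 37 was first compared with parental cells, to see how the cells with high integrand expression differed from the line they came from. In clone 37, 9 of the 10 transcripts were called lower and 0 higher. PHGDH, PSAT1, MTHFD2 and ALDH1L2 fell at least 2-fold. From the lowest log2 fold change of all tested genes they lay at percentiles 3.16, 4.38, 4.53 and 2.12. Against its chromosome neighbours MTHFD2 was at -0.80. Among all 16501 genes tested, 27.3% were called lower, 26.7% higher and 54.0% in either direction. The median log2 fold change was -0.64 over the 10 enzymes and 0.02 over all tested genes. The split was 0 higher and 7 lower under 7 of 17 alternatives, among them leaving out any 1 clone 37 library, 0 and 8 with DESeq2, 1 and 7 after removal of GC and length trends, 1 and 8 against chromosome neighbours and 1 and 9 without parental replicate 1. Of all tested genes, 27.3% to 50.8% were called in either direction under those 7 alternatives. The shares were 46.2%, 54.0%, 42.8% and 48.1% under the other 4, in the order given. Calls are from edgeR's quasi-likelihood test at a Benjamini-Hochberg adjusted p under 0.05. In CPM, 9 enzymes had no overlap between groups in the lower direction, where 28.6% of all tested genes did, and 1, SHMT1, in the higher direction, where 33.1% did.

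Clone 15, with low integrand expression, was then set against the same parental libraries. Here 5 enzymes were called lower (PHGDH, PSAT1, PSPH, MTHFD2, ALDH1L2), 1 was called higher (SHMT1) and 4 were not called. Of 17703 genes tested 26.2% were called lower, 25.1% higher and 51.4% in either direction. The median log2 fold change was -0.35 over the enzymes and 0.02 over all tested genes. In CPM, 6 enzymes lay wholly below the parental libraries, as did 28.0% of all tested genes, and 2 (SHMT1, MTHFD1) wholly above, as did 31.5%. The split was 2 higher and 5 lower with the DESeq2 Wald test, 2 and 7 after removal of GC and length trends, and 0 and 8 against chromosome neighbours. With these settings 46.9%, 49.1% and 42.1% of all tested genes were called in either direction. Both comparisons share the parental libraries, so the values are given side by side and no overlap between them is counted as a result.

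The third comparison set the clones against each other and tests directly whether their differences from parental cells were of unequal size. In clone 37, 6 enzymes were lower than in clone 15 (PHGDH, PSAT1, SHMT2, SHMT1, MTHFD1, PYCR1) and 0 were higher. Among 17712 tested genes 29.0% were called lower, 28.7% higher and 57.7% in either direction. In CPM, the same 6 lay wholly below clone 15, as did 32.1% of all tested genes, and 0 wholly above, as did 31.5%. After removal of GC and length trends, 7 were lower and 2 higher, the added calls being ALDH1L2 (-0.14), PSPH (0.23) and MTHFD1L (0.12). With that setting 58.6% of all tested genes were called in either direction. The median log2 fold change was -0.34 over the enzymes and -0.0015 over all tested genes.

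**Figure D2:**
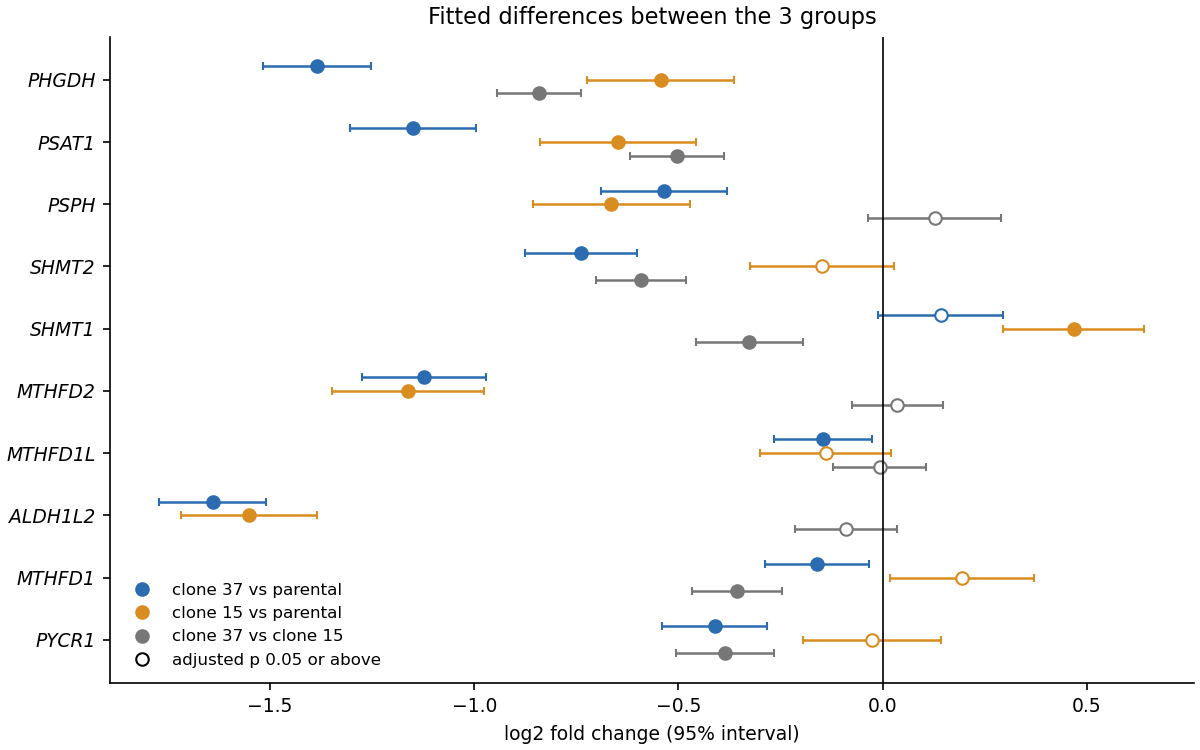
Fitted log2 fold change of each enzyme in the 3 comparisons, with 95% intervals from the quasi-likelihood fit of 3 against 3 libraries; open circles did not pass an adjusted p of 0.05. The clone 37 and clone 15 points lie close together for MTHFD2, ALDH1L2, PSPH and MTHFD1L and apart for PHGDH, PSAT1, SHMT2, SHMT1, MTHFD1 and PYCR1.

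The serine synthesis enzymes fell in both clones. PHGDH (ENSG00000092621, chromosome 1, 119648411 to 119744226, plus strand), which oxidises 3-phosphoglycerate in the entry step, had 698, 725 and 748 CPM in parental libraries, 503, 523 and 496 in those of clone 15 and 285, 286 and 275 in those of clone 37. The 3 groups did not overlap, and clone 15 lay between the others in all libraries. The log2 fold change was -1.39 (adjusted p 7.64e-12, SE 0.06) in clone 37 and -0.54 (adjusted p 1.26e-05, SE 0.09) in clone 15. The direct difference between the clones was -0.84 (adjusted p 4.4e-14, SE 0.05), the widest between the clones among the 10 enzymes.

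PSAT1 (ENSG00000135069, chromosome 9, 78297143 to 78330093, plus strand), the transaminase of the middle step, had 446, 532 and 486 CPM in parental libraries, 332, 326 and 298 in those of clone 15 and 217, 218 and 236 in those of clone 37. Its groups were ordered like those of PHGDH, again without overlap. The log2 fold change was -1.15 (adjusted p 9.14e-10, SE 0.07) in clone 37, -0.65 (adjusted p 2.22e-06, SE 0.09) in clone 15 and -0.50 (adjusted p 1.1e-08, SE 0.06) between the clones.

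PSPH (ENSG00000146733, chromosome 7, 56011051 to 56051604, minus strand), the phosphatase that releases serine, was less abundant. It had 43.9, 47.9 and 48.5 CPM in parental libraries, 30.1, 32.8 and 27.6 in those of clone 15 and 33.4, 33.0 and 32.3 in those of clone 37. All 6 clone libraries lay below the parental ones, and the clones overlapped. It fell by 0.54 (adjusted p 8.3e-06, SE 0.07) in clone 37 and by 0.66 (adjusted p 1.73e-06, SE 0.09) in clone 15 on the log2 scale. The difference between the clones was 0.13 with a 95% interval from -0.04 to 0.29, and did not pass the test (adjusted p 0.171). It was 0.06 without clone 15 replicate 3. PHGDH and PSAT1 were thus lower in clone 37 than in clone 15, while no such difference was found for the last enzyme of the same pathway. Whether the gap between the clones itself differs from gene to gene was not tested.

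Of the serine hydroxymethyltransferases, the mitochondrial transcript fell in clone 37 and the cytosolic one rose in clone 15. SHMT2 (ENSG00000182199, chromosome 12, 57229327 to 57234935, plus strand), the mitochondrial isozyme, had 284, 325 and 311 CPM in parental libraries, 274, 298 and 278 in those of clone 15 and 195, 181 and 186 in those of clone 37. Parental and clone 15 libraries overlapped and every clone 37 library lay below them. SHMT2 fell in clone 37 by 0.74 (adjusted p 4.68e-08, SE 0.07) on the log2 scale. In clone 15 its log2 fold change was -0.15 (95% interval -0.32 to 0.03, adjusted p 0.151), and between the clones -0.59 (adjusted p 2.31e-10, SE 0.05). The clone 15 difference passed the test after removal of GC and length trends (-0.24) and against its chromosome neighbours (-0.36). It was -0.08 without parental replicate 2 and -0.23 without parental replicate 1, with no call in either.

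SHMT1 (ENSG00000176974, chromosome 17, 18327860 to 18363563, minus strand), the cytosolic isozyme, had 52.9, 43.8 and 49.1 CPM in parental libraries, 69.1, 67.7 and 68.6 in those of clone 15 and 55.6, 54.8 and 53.0 in those of clone 37. By the test named above it was the only one of the 10 called higher in a clone, rising by 0.47 (adjusted p 4.84e-05, SE 0.08) in clone 15 on the log2 scale. In clone 37 the log2 fold change was 0.14 (95% interval -0.01 to 0.30, adjusted p 0.109). The call changed to higher in clone 37 without parental replicate 1 (0.20) and after removal of GC and length trends (0.21), while the value was 0.07 without parental replicate 2. Against its chromosome neighbours the clone 15 rise was 0.16 and lost its call (adjusted p 0.133), and clone 37 was at -0.05. Clone 37 was below clone 15 by -0.33 (adjusted p 7.4e-05, SE 0.06).

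As a ratio within each library, SHMT2 counts were 5.37, 7.43 and 6.35 times the SHMT1 counts in parental, 3.96, 4.41 and 4.05 times in clone 15 and 3.51, 3.31 and 3.50 times in clone 37. The groups did not overlap. Parental libraries averaged a log2 ratio of 2.66 ± 0.234 (SD, n = 3), against 2.05 ± 0.0809 for clone 15 and 1.78 ± 0.0490 for clone 37. The exact two-sided permutation p was 0.1 for each of these 3 contrasts, the smallest that 3 libraries against 3 allow, and 0.113 adjusted over the 9 ratio tests made.

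Of the mitochondrial folate enzymes, MTHFD2 and ALDH1L2 fell to about the same level in both clones. MTHFD2 (ENSG00000065911, chromosome 2, 74198562 to 74217565, plus strand), the methylenetetrahydrofolate dehydrogenase and cyclohydrolase of mitochondria, had 366, 435 and 379 CPM in parental libraries, 184, 177 and 178 in those of clone 15 and 184, 178 and 190 in those of clone 37. Every clone library lay below every parental one and the clones overlapped. The log2 fold change was -1.12 (adjusted p 1.07e-09, SE 0.07) in clone 37 and -1.16 (adjusted p 1.05e-10, SE 0.09) in clone 15. Between the clones it was 0.04, with a 95% interval from -0.08 to 0.15 (adjusted p 0.593).

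ALDH1L2 (ENSG00000136010, chromosome 12, 105019784 to 105084577, minus strand) oxidises 10-formyltetrahydrofolate to carbon dioxide in mitochondria. It had 246, 261 and 273 CPM in parental libraries, 94.1, 88.4 and 88.9 in those of clone 15 and 80.3, 89.8 and 84.6 in those of clone 37. Its fall was the largest of the 10 enzymes in either clone, with a log2 fold change of -1.64 (adjusted p 1e-12, SE 0.06) in clone 37 and -1.55 (adjusted p 4.7e-14, SE 0.08) in clone 15. Ranked among all tested genes, these values lay at percentiles 2.12 and 1.75 from the lowest. Between the clones the difference was -0.09, with a 95% interval from -0.22 to 0.04 (adjusted p 0.216). It passed the test without clone 15 replicate 2 (-0.14), against chromosome neighbours (-0.17) and after removal of GC and length trends (-0.14), and was smaller without clone 37 replicate 1 (-0.04).

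MTHFD1L (ENSG00000120254, chromosome 6, 150865549 to 151101887, plus strand), which releases formate from the mitochondrial pathway, differed far less. It had 137, 147 and 144 CPM in parental libraries, 135, 130 and 132 in those of clone 15 and 130, 137 and 127 in those of clone 37. Both clones lay just below the parental range in all libraries. The log2 fold change was -0.15 (adjusted p 0.039, SE 0.06) in clone 37 and -0.14 (adjusted p 0.14, SE 0.08) in clone 15. The clone 37 call was lost under 9 of 17 alternatives, among them leaving out clone 37 replicate 1 (-0.14), replicate 2 (-0.17) or replicate 3 (-0.15) and the DESeq2 test (-0.16). The clone 15 difference passed the test after removal of GC and length trends (-0.21) and against chromosome neighbours (-0.21).

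MTHFD1 (ENSG00000100714, chromosome 14, 64388031 to 64463457, plus strand) is the trifunctional cytosolic enzyme that carries the dehydrogenase, cyclohydrolase and formyltetrahydrofolate synthetase activities on a single protein. It had 347, 366 and 350 CPM in parental libraries, 426, 396 and 423 in those of clone 15 and 336, 313 and 321 in those of clone 37. The 3 groups did not overlap, with clone 15 highest and clone 37 lowest. The log2 fold change was -0.16 (adjusted p 0.0329, SE 0.06) in clone 37, 0.19 (adjusted p 0.0588, SE 0.09) in clone 15 and -0.36 (adjusted p 2.17e-06, SE 0.05) between the clones.

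The clone 37 call for MTHFD1 was lost under 8 of 17 alternatives, among them leaving out clone 37 replicate 1 (-0.19), replicate 2 (-0.13) or replicate 3 (-0.18) and removal of GC and length trends (-0.06, adjusted p 0.529). Against its chromosome neighbours MTHFD1 was called higher in clone 37 (0.24), while clone 37 against clone 15 stood at 0.11 and lost its call (adjusted p 0.0803). The clone 15 difference passed the test under 8 of 17, among them without clone 15 replicate 2 (0.26), without parental replicate 2 (0.24) and with DESeq2 (0.19). Counts of MTHFD2 were 1.05, 1.19 and 1.08 times those of MTHFD1 in parental, 0.433, 0.448 and 0.421 times in clone 15 and 0.548, 0.568 and 0.591 times in clone 37. The change of the mean log2 ratio was -0.96 in clone 37, -1.35 in clone 15 and 0.39 in clone 37 against clone 15, each with an exact two-sided permutation p of 0.1 (0.113 adjusted). The ratios of SHMT2 to SHMT1 and of MTHFD2 to MTHFD1 were therefore below every parental library in both clones. That of PYCR1 to PYCR3, given next, was so in clone 37 only, and none was made for ALDH1L2 and ALDH1L1. The lowest SHMT2 to SHMT1 ratio was in clone 37, and the lowest MTHFD2 to MTHFD1 ratio in clone 15.

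PYCR1 (ENSG00000183010, chromosome 17, 81932384 to 81942412, minus strand), a mitochondrial pyrroline-5-carboxylate reductase, had 143, 154 and 141 CPM in parental libraries, 139, 160 and 142 in those of clone 15 and 115, 108 and 112 in those of clone 37. Clone 15 spanned the parental range, and clone 37 lay below both groups. It fell in clone 37 by 0.41 (adjusted p 1.91e-05, SE 0.06) on the log2 scale. In clone 15 the log2 fold change was -0.03 (95% interval -0.20 to 0.14, adjusted p 0.813), and between the clones -0.39 (adjusted p 2.27e-06, SE 0.06). The ratio of PYCR1 to PYCR3, the cytosolic reductase, was 3.59, 4.28 and 3.39 in parental libraries, 4.37, 3.98 and 3.77 in those of clone 15 and 2.47, 2.27 and 2.43 in those of clone 37. Its exact two-sided permutation p was 0.1 for clone 37 against either group and 0.4 for clone 15 against parental.

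**Figure D3:**
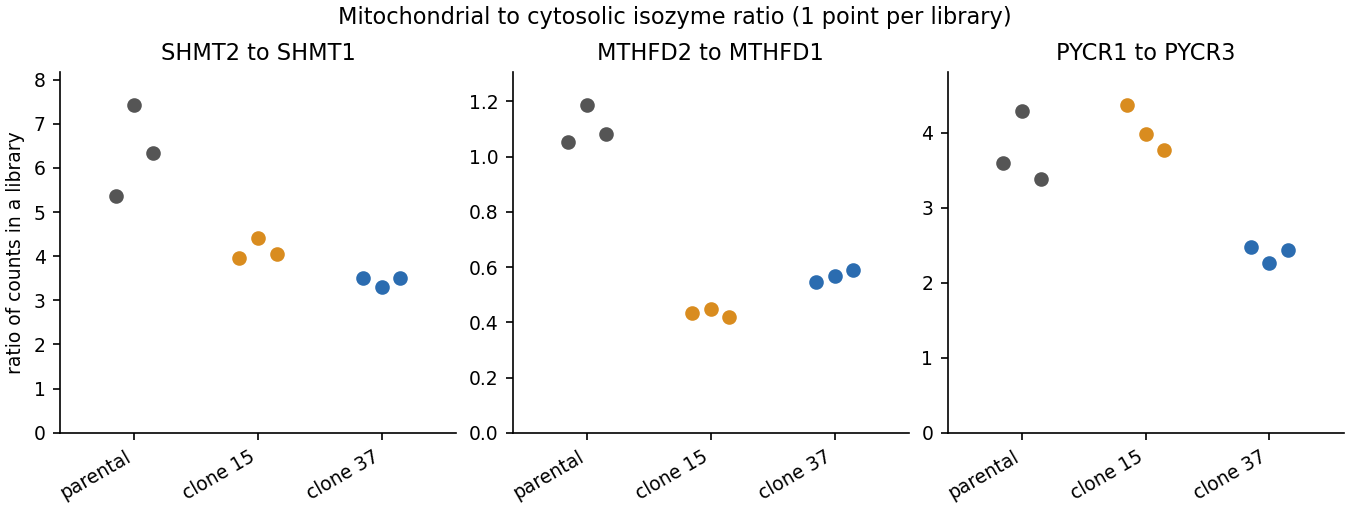
Ratio of the counts of a mitochondrial enzyme to those of its cytosolic counterpart for 3 pairs, 1 point per library and 3 libraries per group, on axes that start at 0. The pair of ALDH1L2 and ALDH1L1 is not shown. SHMT2 to SHMT1 and MTHFD2 to MTHFD1 are lower in every clone library than in every parental library, whereas PYCR1 to PYCR3 is lower in clone 37 only, since clone 15 (3.77 to 4.37) overlaps parental (3.39 to 4.28).

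Other isozymes of these steps were read at lower levels. MTHFD2L, the second mitochondrial dehydrogenase, averaged 18.15 ± 1.34 CPM in parental cells (SD, n = 3), 17.1 ± 0.430 in clone 15 and 21.6 ± 2.17 in clone 37, and was called in neither clone against parental (log2 fold changes 0.23 and -0.11, adjusted p 0.0602 in clone 37 and 0.409 in clone 15). After removal of GC and length trends it passed the test in clone 37 (0.37). Unlike MTHFD2, it was higher in clone 37 than in clone 15 (0.35, adjusted p 0.00339, SE 0.10), a call lost without clone 37 replicate 3 (0.24), after removal of GC and length trends (0.16) and against chromosome neighbours (0.18). ALDH1L1, the cytosolic counterpart of ALDH1L2, had 2.84 ± 0.647 CPM in parental, 3.55 ± 0.795 in clone 15 and 0.502 ± 0.0574 in clone 37, with clone 37 below both other groups. The log2 fold change of ALDH1L1 was -2.48 in clone 37 (adjusted p 9.1e-06, SE 0.34) and 0.32 in clone 15 (adjusted p 0.263). In clone 37 the cytosolic ALDH1L1 thus had a larger fall than ALDH1L2 (-1.64), unlike the pairs above. In clone 15 only ALDH1L2 was called lower (-1.55).

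Copy number differs along the chromosomes of such lines, so each enzyme was set beside the tested genes around it. For the 100 nearest tested genes in chromosome order, the median log2 fold change ranged from -0.40 (MTHFD1) to 0.20 (PYCR1) in clone 37 and from -0.30 (MTHFD2) to 0.39 (PYCR1) in clone 15. For ALDH1L2 and PSAT1 the neighbours were slightly higher in both clones (0.19 and 0.08 in clone 37, 0.08 and 0.06 in clone 15), opposite to the genes themselves. For PHGDH the neighbours were at -0.26 in clone 37 and -0.23 in clone 15, for PSPH at -0.29 and -0.24, and for MTHFD2 at -0.32 and -0.30. Tested against these medians, PHGDH (-1.13 and -0.31), PSPH (-0.25 and -0.42) and MTHFD2 (-0.80 and -0.86) were still called lower in clone 37 and clone 15. MTHFD1 and SHMT1 changed sign in clone 37: against its neighbours MTHFD1 was called higher (0.24), and SHMT1 was at -0.05 without a call. In clone 15, SHMT1 lost its call against its neighbours (0.16), and PYCR1 was called lower (-0.42). Gene copy number itself was not measured here.

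**Figure D4:**
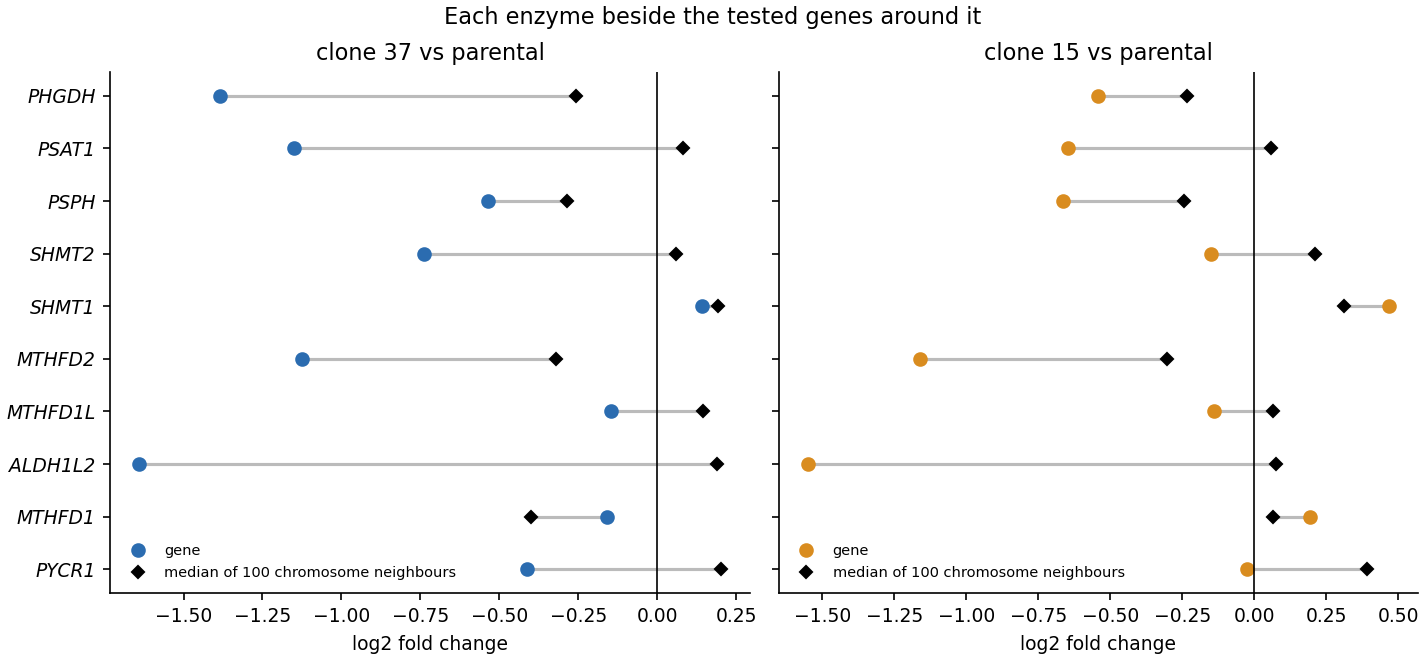
Log2 fold change of each enzyme (circle) and median of its 100 nearest tested neighbours (diamond), for each clone against parental. The circle lies left of the diamond for most enzymes. MTHFD1 lies to the right of it in both clones and SHMT1 in clone 15.

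Connected pathways were counted whole, in lists written with earlier results of these data known. Beside them, the calls among all tested genes were 27.3% lower and 26.7% higher in clone 37, and 26.2% lower and 25.1% higher in clone 15. Among the genes that carry or use serine and glycine, 13 of 15 were tested, with 7 lower and 4 higher calls in clone 37 against 5 and 4 in clone 15. The median log2 fold change was -0.35 in clone 37 and -0.04 in clone 15. SLC1A4, a transporter of serine and other neutral amino acids, was lower in both (-2.05, SE 0.10, and -0.95, SE 0.10). SLC6A9, a glycine transporter, was lower in both as well (-1.07 and -0.41). Higher in both were SDSL, a serine dehydratase-like gene (0.67 and 0.75), and SFXN2, a mitochondrial sideroflexin (0.58 and 0.82). GCSH, the lipoyl carrier of the glycine cleavage system, was higher in clone 37 (1.12) and lower in clone 15 (-0.51), and 16.0% of its 75-base words occur in another annotated gene.

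The list of other mitochondrial folate genes had 6 tested genes. In clone 37, 1 was called higher (MTFMT, 0.46) and 1 lower (SARDH, -1.11), with a median of 0.18. In clone 15, 3 were called lower, with a median of -0.34. They were DMGDH (-1.04, mean 0.645 CPM), SARDH (-0.87, mean 2.69 CPM) and AASDHPPT (-0.57). AASDHPPT stands in this list as it was written, although its product is not a folate enzyme. In the cytosolic folate list clone 37 had 3 calls in each direction among 14 tested genes (27.3% lower and 26.7% higher over all genes). Clone 15 had 6 higher and 4 lower calls among 15 (25.1% higher and 26.2% lower over all genes), with medians of -0.0017 and -0.08. SLC19A1, the reduced folate carrier (0.55), and MTRR, which reactivates methionine synthase (0.47), were called higher in clone 37 (and in clone 15, 0.67 and 0.37), and DHFR2 lower in both clones (-0.47 and -1.08). DHFR2 stands in this list as it was written, although its product is known as a mitochondrial dihydrofolate reductase.

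Of 7 tested genes of the proline list, clone 37 had 2 called in each direction and clone 15 had 1 called higher and 2 called lower, near the shares over all genes (26.7% higher and 27.3% lower, then 25.1% and 26.2%), with medians of 0.06 and -0.09. PYCR3 was called higher in clone 37 (0.23, adjusted p 0.0106), a call lost without clone 37 replicate 3 (0.22), with thinned counts (0.17) and against chromosome neighbours (0.10). P4HA1 and P4HA2, prolyl hydroxylases of collagen synthesis, were called lower in both clones (-0.65 and -0.43 in clone 37, -1.14 and -0.58 in clone 15). In the methionine and transsulfuration list 3 were called higher and 2 lower of 8 tested in clone 37 (26.7% and 27.3% over all genes), and 2 and 2 in clone 15 (25.1% and 26.2%), with medians of 0.09 and -0.02. CTH, which makes cysteine from cystathionine, was lower in both (-1.45, SE 0.10, and -1.14, SE 0.11), as was AHCYL1 (-0.43 and -0.66). AHCY, which hydrolyses S-adenosylhomocysteine, was higher in both (0.30 and 0.44), but at -0.03 and 0.03 against its chromosome neighbours, with no call in either. AMD1, an enzyme of polyamine synthesis, was higher in clone 37 (0.27).

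The list of ATF4 and its other targets moved in the direction of the enzymes. Of 12 tested genes 10 were called lower and 0 higher in each clone, beside 27.3% called lower over all genes in clone 37 and 26.2% in clone 15, with medians of -0.84 in clone 37 and -0.58 in clone 15. Genes of this list were already known to be lower in these libraries when the list was written, so the count is no independent evidence. The ATF4 transcript had 602, 699 and 640 CPM in parental libraries, 563, 535 and 575 in those of clone 15 and 450, 429 and 455 in those of clone 37. The 3 groups did not overlap. It was lower in clone 37 (-0.57, adjusted p 3.18e-06, SE 0.07), in clone 15 (-0.25, adjusted p 0.0302, SE 0.09) and in clone 37 against clone 15 (-0.32, adjusted p 7.1e-06, SE 0.05). The clone 15 call was lost under 4 of 17 alternatives, among them without clone 15 replicate 1 (-0.24) or replicate 2 (-0.19) and against chromosome neighbours (-0.22). Translation of ATF4 was not measured. CHAC1, a glutathione-degrading enzyme, and VLDLR, a lipoprotein receptor, had means in the order of PHGDH. CHAC1 averaged 31.6 CPM in parental cells, 17.0 in clone 15 and 4.15 in clone 37, and VLDLR 53.3, 28.2 and 16.7. STC2, a secreted glycoprotein, had means of 245, 130 and 147 CPM in parental, clone 15 and clone 37, nearer to the order of MTHFD2.

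**Figure D5:**
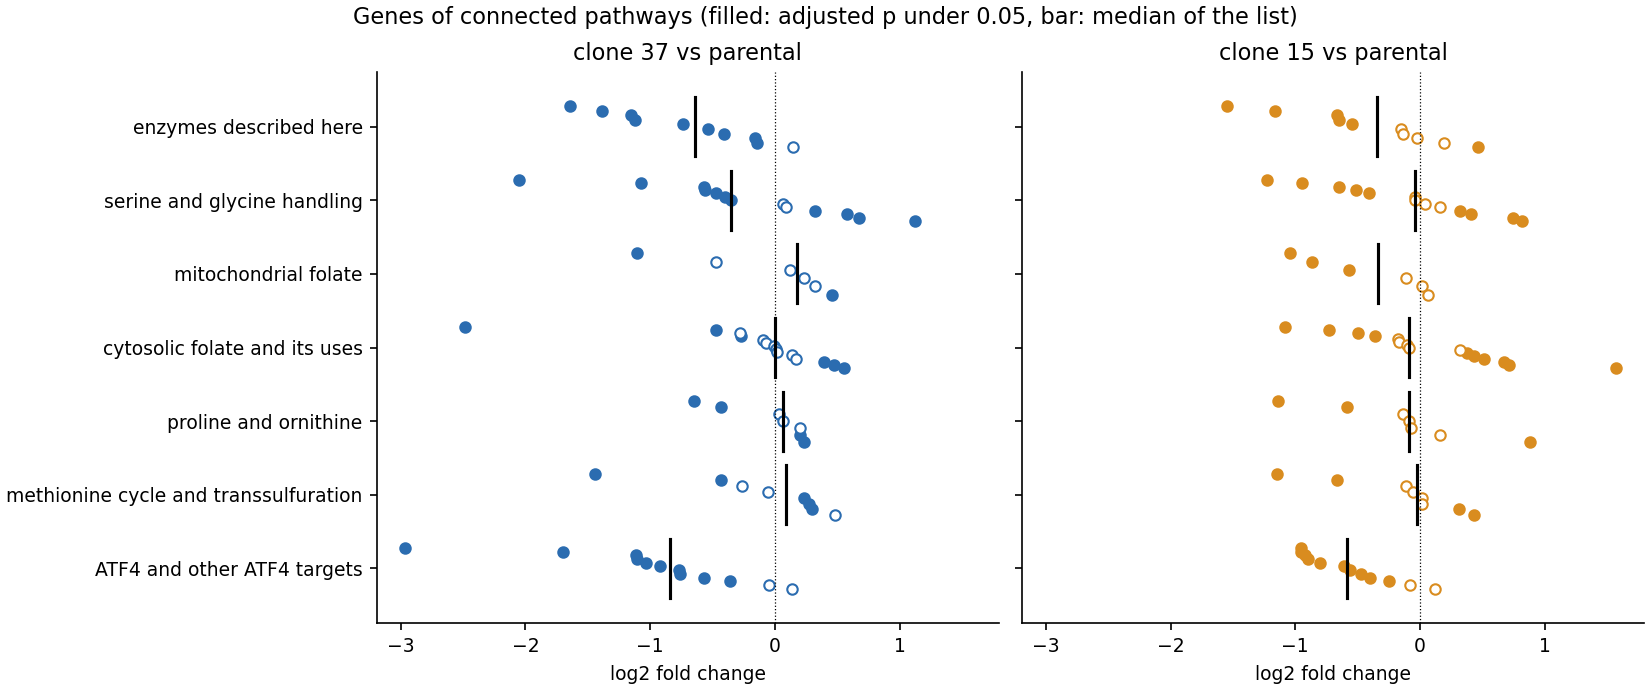
Log2 fold change against parental of the 10 enzymes (top line) and of the tested genes of 6 connected lists, 1 point per gene, filled where the adjusted p was under 0.05, with the list median as a bar. The enzymes (medians -0.64 and -0.35) and the ATF4 list (-0.84 and -0.58) lie mostly left of 0, while the cytosolic folate, proline and methionine lists spread to both sides.

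Likeness of pattern was measured as the root mean square difference of mean-centred log2 CPM over the 9 libraries, among 11315 protein-coding genes with a mean of at least 5 CPM. The 5 genes most like MTHFD2 were RORB, ADCY1, TES, SDC3 and LTBP1, at 0.0991 to 0.101. Among the enzymes ALDH1L2 was nearest to MTHFD2, at place 215 (0.237), then PSAT1 at place 270 (0.252). The 5 genes most like PHGDH were ZNF521, DENND11, WNT5A, APOBEC3C and DMC1, at 0.0553 to 0.0884. PSAT1 was the nearest enzyme to PHGDH, at place 73 (0.161), followed by SHMT2 at place 345 (0.271). These distances are a description over 3 groups of libraries.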

How the data were processed

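The deposited files hold raw counts of read pairs per gene, 1 file per library, in the layout of STAR's gene counts; the submitters' processing notes name STAR 2.7.10a, FastQC 0.11.9 and hg38, and the annotation release, trimming and filters are not given in the sources used here. Uniquely mapped pairs are counted in this layout, so reads shared with a near-identical copy are lost. Of the 75-base words of each enzyme's longest transcript, at most 2.28% (PSPH) occur in another gene, leaving out antisense overlaps. The directional kit allowed the transcript strand (column 4) to be used; it held 92.6% to 94.0% of stranded gene counts. The 4 summary entries stayed out of library sizes; of all read pairs, 50.9% to 59.7% were assigned to genes.

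Of 60683 gene IDs, 60370 had a symbol in the gene name table and 58496 matched GENCODE 29 on GRCh38, which gave positions and lengths. Each comparison was fitted on its 6 libraries with filterByExpr, TMM and glmQLFit (robust) in edgeR 4.0.16, R 4.3.3. The SE of a log2 fold change was its size over the square root of F. Alternatives were RLE factors, DESeq2 1.42.0, no filter, 1 CPM in 3 libraries, unstranded counts, all 9 libraries, a replicate block, thinned counts, protein-coding genes, GC and length trends removed, chromosome neighbours and leaving out each library. On simulated counts with 200 changed genes, 97%, 91% and 99% of 2-fold changes were recovered for clone 37 and clone 15 against parental and between the clones, and 90%, 78% and 87% of 1.5-fold changes. False calls were 5.08%, 5.59% and 10.1%, above the nominal rate in all 3, each from a single draw. The 200 were taken only from genes above a minimum mean count, among 16220 to 17394 genes. In the data 54.0%, 51.4% and 57.7% of tested genes were called, so recovery and false calls there may differ. The enzymes and lists were chosen with earlier results of these data known. The naming rule took every enzyme, the other isozymes, ATF4 and, in each list and comparison, up to 2 called genes with the largest change each way; some of the latter are not described, and an isozyme is not reported here. Likeness used log2(CPM + 0.1). Python 3.11.15, pandas 2.3.3 and scipy 1.17.1 served the other steps.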

Additional observations from a re-analysis of the deposited data

Results flagged for a closer look

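The difference between the clones passed the direct test of clone 37 against clone 15 for 6 of the 10 enzymes. Among all tested genes 57.7% were called between the clones, about the same share. The log2 differences were -0.84 for PHGDH, -0.50 for PSAT1, -0.59 for SHMT2, -0.33 for SHMT1, -0.36 for MTHFD1 and -0.39 for PYCR1. Clone 37 was the lower clone in each, in 3 of 3 libraries against 3 of 3. Against chromosome neighbours MTHFD1 was at 0.11 without a call, and PYCR1 at -0.17. SHMT1 was at -0.20 after removal of GC and length trends. PYCR1 and SHMT1 kept their calls there.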

How the results depend on the processing

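Of 17 alternatives per comparison, PHGDH, PSAT1, PSPH, SHMT2, MTHFD2, ALDH1L2 and PYCR1 in clone 37, and PHGDH, PSAT1, PSPH, MTHFD2 and ALDH1L2 in clone 15, kept direction and call under all 17. Enzymes called numbered 7 to 10 in clone 37, 6 to 9 in clone 15 and 6 to 9 between the clones. Over the same settings 27.3% to 61.6%, 25.8% to 59.4% and 30.4% to 63.8% of all tested genes were called, the lowest shares without a filter on low counts. With the replicate block they numbered 7, 6 and 6, and all genes called 8375, 8708 and 10490; MTHFD1 (-0.16) and MTHFD1L (-0.14) in clone 37 and ATF4 (-0.24) in clone 15 lost their calls. Same-numbered libraries did not deviate together (correlations -0.159 to 0.0221), so the numbers were not taken as pairs. Leaving out 1 library gave 7487 to 10027 genes called in clone 37, 7997 to 9071 in clone 15 and 9069 to 10454 between the clones. Without a filter the median of all genes moved to 0.14 in clone 15 and -0.12 between the clones.

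Signs changed as follows, and the cause was not tested. Against chromosome neighbours SHMT1 (-0.049), MTHFD1 (0.24) and AHCY (-0.030) in clone 37, PYCR3 (0.12) in clone 15, and MTHFD1 (0.11), PYCR3 (-0.071) and STC2 (-0.025) between the clones took the other sign. With GC and length trends removed this held for MTHFD2L (0.21) in clone 15 and for MTHFD2 (-0.045) and MTHFD1L (0.12) between the clones. With unstranded counts it held for MTHFD1L (0.019) between the clones, and with protein-coding genes only for PYCR1 (0.019) in clone 15. Leaving out a library turned PYCR1 in clone 15 (0.030 and 0.015 without clone 15 replicates 1 and 3, 0.039 without parental replicate 2). Between the clones it turned MTHFD2 (-0.00068 without clone 37 replicate 3, -0.0029 without clone 15 replicate 2) and MTHFD1L (0.0071 and 0.0039 without clone 37 replicates 1 and 3, 0.0048 without clone 15 replicate 1). Of these, MTHFD1 and AHCY in clone 37 and MTHFD1, PYCR3 and STC2 between the clones had been called. Over all single libraries left out, these ran down to -0.082 (PYCR1), up to 0.074 (MTHFD2) and down to -0.048 (MTHFD1L). Of the genes given by value here, ALDH1L1 was at 0.502 CPM in clone 37 and DMGDH at 0.645 CPM in clone 15, where depth limits their fold changes.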

Other observations

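COL1A2, a fibrillar collagen gene among the fibroblast markers, had 0 counts in all 6 parental and clone 37 libraries and 5.59, 12.2 and 56.8 CPM in clone 15 replicates 1, 2 and 3. COL1A1 was 48.3, 61.4 and 108 CPM in the same clone 15 libraries. The gene was singled out after its values were seen. In the same 3 libraries the coefficients of variation of the 10 enzymes ran from 1.06% (SHMT1) to 8.72% (PSPH).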
